A study of Mus musculus with 16 samples.

Results

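H3K27Ac ChIP-seq peaks were examined at 5 genes that encode transcription factors of hepatocyte identity, Hnf4a, Foxa1, Foxa2, Cebpa and Cebpb, in mouse liver at 3 stages, WT tissue, inflamed tissue of Mdr2-/- mice and HCC nodules of Mdr2-/- mice. The genes were taken by name, and their peaks were those overlapping 1 window around each gene in the mm9 build. The windows were chr2:163315000-163415000 for Hnf4a, chr12:58620000-58670000 for Foxa1, chr2:147850000-147895000 for Foxa2, chr7:35880000-35960000 for Cebpa and chr2:167495000-167540000 for Cebpb. Peaks of all 15 animals in the windows merged into 13 of the 56941 merged regions of the genome. These were 3 regions at Hnf4a, 1 at Foxa1, 1 at Foxa2, 4 at Cebpa and 4 at Cebpb.

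Each library came from the liver tissue of a different mouse, with 5 animals in each of 3 groups. WT livers came from Mdr2-WT mice of the FVB.129P2 background at 14 to 19 months of age, as the labels give it, while the study's text names these mice FVB/NJ. Inflamed livers came from Mdr2-KO mice (FVB.129P2-Abcb4tm1Bor/J) at 7 to 8 months, and HCC nodules from mice of the same knockout strain at 14 to 19 months. The knockout is present in every cell of these mice and removes a phosphatidylcholine transporter of hepatocytes. All mice, WT included, received clodronate liposomes at 50 ug per g of body weight for 48 h to deplete macrophages. Inflamed livers were the youngest, so that age and inflammation cannot be told apart in their comparisons. The tissue was bulk liver or nodule, so that fewer cells of a type and less acetylation per cell cannot be told apart. Marker genes of hepatocytes and of other cell types were not analysed here, because no annotation of the mm9 build was used.

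The files held peak positions and peak scores and no read counts, so the depth of each library is unknown. Lists held 26375 to 30268 peaks in WT livers, 35901 to 40909 in inflamed livers and 26683 to 42736 in HCC nodules on chromosomes 1 to 19 and X. They covered 109 to 148 Mb, 138 to 159.9 Mb and 92.5 to 175 Mb, respectively. Likeness of lists was measured by the Jaccard index, the bases under peaks in both lists as a share of those in either. The lists of WT animal 130748 and HCC animal 124711 stood apart and were each nearest to the other, at 0.630, while 130748 reached 0.498 to 0.509 with other WT livers and 124711 reached 0.363 to 0.455 with other nodules. The nearest list of each of the 5 nodules came from outside its group, and that of every other WT liver and of every inflamed liver from within it. These 2 lists covered the least of their groups, at 109 and 92.5 Mb. Window differences are also given without them. The study left 2 of the 15 samples out of its principal component plot of H3K27Ac as outliers, and its legend does not name them. All 15 animals were kept in the main tests here.

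H3K27Ac marks active promoters and enhancers, and long acetylated stretches are typical of genes that define a cell type. HNF4A is a nuclear receptor that drives much of the hepatocyte gene programme and is transcribed from alternative promoters. FOXA1 and FOXA2 are forkhead pioneer factors that open liver enhancers, and C/EBPalpha and C/EBPbeta are bZIP factors, the former tied to the resting metabolic state of hepatocytes and the latter to the acute-phase response and regeneration. These factors bind at each other's genes in the liver.

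All 5 genes were matched by symbol in the RefSeq promoter table (GRCm38.p6), which held 8 of their promoters, each from 250 bases before to 50 after the start. The table's build differs from that of the peaks, so the starts were not placed within the windows. The promoters of Hnf4a, Foxa1, Cebpa and Cebpb and the Foxa2 promoter with motif matches are shown to give their base composition and the motifs they hold, with matches in capitals. Each of 5 motifs was searched on both strands as exact letters. The sequences read 5′ to 3′ on the strand of the gene, which is plus for Hnf4a at chr2:163506607-163506906 (promoter 1) and chr2:163546905-163547204 (promoter 2), minus for Foxa1 at chr12:57546062-57546361 and Foxa2 at chr2:148045415-148045714 (promoter 3), and plus for Cebpa at chr7:35119043-35119342 and Cebpb at chr2:167688665-167688964.
Hnf4a promoter 1: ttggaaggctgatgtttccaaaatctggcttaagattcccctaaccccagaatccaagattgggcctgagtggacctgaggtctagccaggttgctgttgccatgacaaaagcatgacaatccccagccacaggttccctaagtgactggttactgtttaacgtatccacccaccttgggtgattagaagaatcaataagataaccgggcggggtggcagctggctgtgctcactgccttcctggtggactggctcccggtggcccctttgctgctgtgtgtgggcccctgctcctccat
Hnf4a promoter 2: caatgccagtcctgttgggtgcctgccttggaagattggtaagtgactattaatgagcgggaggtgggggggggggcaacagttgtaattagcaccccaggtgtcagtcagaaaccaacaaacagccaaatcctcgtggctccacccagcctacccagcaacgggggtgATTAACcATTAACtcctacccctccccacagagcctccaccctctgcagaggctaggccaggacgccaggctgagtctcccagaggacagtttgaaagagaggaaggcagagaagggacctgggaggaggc
Foxa1 promoter 1: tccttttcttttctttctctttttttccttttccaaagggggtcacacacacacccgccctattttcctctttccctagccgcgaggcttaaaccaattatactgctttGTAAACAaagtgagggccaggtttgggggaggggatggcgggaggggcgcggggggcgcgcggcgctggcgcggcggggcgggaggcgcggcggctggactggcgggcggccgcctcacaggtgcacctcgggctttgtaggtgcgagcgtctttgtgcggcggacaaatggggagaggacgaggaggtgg
Foxa2 promoter 3: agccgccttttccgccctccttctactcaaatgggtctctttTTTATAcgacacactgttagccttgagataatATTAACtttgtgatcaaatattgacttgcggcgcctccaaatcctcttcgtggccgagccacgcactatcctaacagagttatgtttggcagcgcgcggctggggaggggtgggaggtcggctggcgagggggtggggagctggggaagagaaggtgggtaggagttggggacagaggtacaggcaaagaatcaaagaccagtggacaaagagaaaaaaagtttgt
Cebpa promoter 1: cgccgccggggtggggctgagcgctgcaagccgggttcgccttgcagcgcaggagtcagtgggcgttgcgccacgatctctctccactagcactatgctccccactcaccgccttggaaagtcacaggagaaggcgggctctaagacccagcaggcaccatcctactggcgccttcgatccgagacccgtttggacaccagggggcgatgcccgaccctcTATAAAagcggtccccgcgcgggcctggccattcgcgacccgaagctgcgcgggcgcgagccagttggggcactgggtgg
Cebpb promoter 1: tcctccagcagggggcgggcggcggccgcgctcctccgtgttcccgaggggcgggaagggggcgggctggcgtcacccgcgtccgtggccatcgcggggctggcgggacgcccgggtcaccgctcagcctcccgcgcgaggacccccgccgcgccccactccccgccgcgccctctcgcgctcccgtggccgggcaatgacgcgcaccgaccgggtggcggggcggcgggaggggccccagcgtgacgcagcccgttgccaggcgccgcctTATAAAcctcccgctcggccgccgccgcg

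The Hnf4a starts lay 40298 bp apart. The downstream promoter held the letters of the HNF1 half-site GTTAAT in 2 places, 81 and 74 bases before the start, which do not overlap. Both read ATTAAC on the gene's strand. The other Hnf4a promoter held none of the 5 motifs. GTTAAT was found in 7.10% of all 32851 promoters. The Foxa1 promoter held the forkhead motif TGTTTAC once, 141 bases before the start, as did 3.65% of all promoters. Foxa2 promoter 3 also held GTTAAT, 176 bases before the start, and the TATA letters on the opposite strand 208 bases before it, and the other Foxa2 promoters held none of the 5 motifs. Cebpa and Cebpb each held on the gene's strand the TATA motif TATAAA, which 13.6% of promoters share, at 30 bases before the start in Cebpa and at base 22 after the start in Cebpb. The GC content was 54% and 57.3% in the Hnf4a promoters, 62.3% at Foxa1, 51.7% to 64% at Foxa2, 67.3% at Cebpa and 80.7% at Cebpb, against a median of 52.7% over all promoters. The HNF4 motif CAAAGTCCA, in 0.475% of all promoters, and the C/EBP motif TTNNGCAA, in 10.8%, were not found in any of the 8 promoters, which says only that these letters are not in these windows.

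Every animal had peaks in each of the 5 windows, and 6 of the 13 regions (46.2%) had a peak in all 15 animals, against 12112 (21.3%) of the 56941 regions of the genome. Of the bases that any animal covered, 60.3% at Hnf4a, 60.6% at Foxa1, 56.7% at Foxa2, 52.1% at Cebpa and 42.7% at Cebpb were covered in all 15, against 15.4% over the genome. The merged regions, which join the peaks of all 15 animals, were long. The longest stretch under a peak in all 15 animals was 17039 bp at Hnf4a, 15323 bp at Cebpa and 14446 bp at Cebpb. It was 6603 bp at Foxa2 and 4881 bp at Foxa1. The main Hnf4a region spanned 78625 bp, and 24 of the 56941 regions were as wide. It held at least 2 separate peaks in each animal. The main regions at Cebpa and Foxa2 spanned 48910 and 48534 bp (130 and 134 regions as wide), those at Cebpb 19091 and 17303 bp, and that at Foxa1 14673 bp (2964 as wide). The Foxa2 width depends on a single peak of 46961 bp in HCC animal 123390, which starts at chr2:147828729. In no other animal did coverage of this region begin before 147837876. The widest Foxa2 peak was at most 17596 bp in WT and 15190 bp in inflamed livers. The highest peak of the Hnf4a, Foxa2, Cebpa and Cebpb windows ranked at the 99.3rd percentile of its list or above in all 15 animals, where many peaks share a score of 3100 and are not ranked among themselves.

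**Figure D1:**
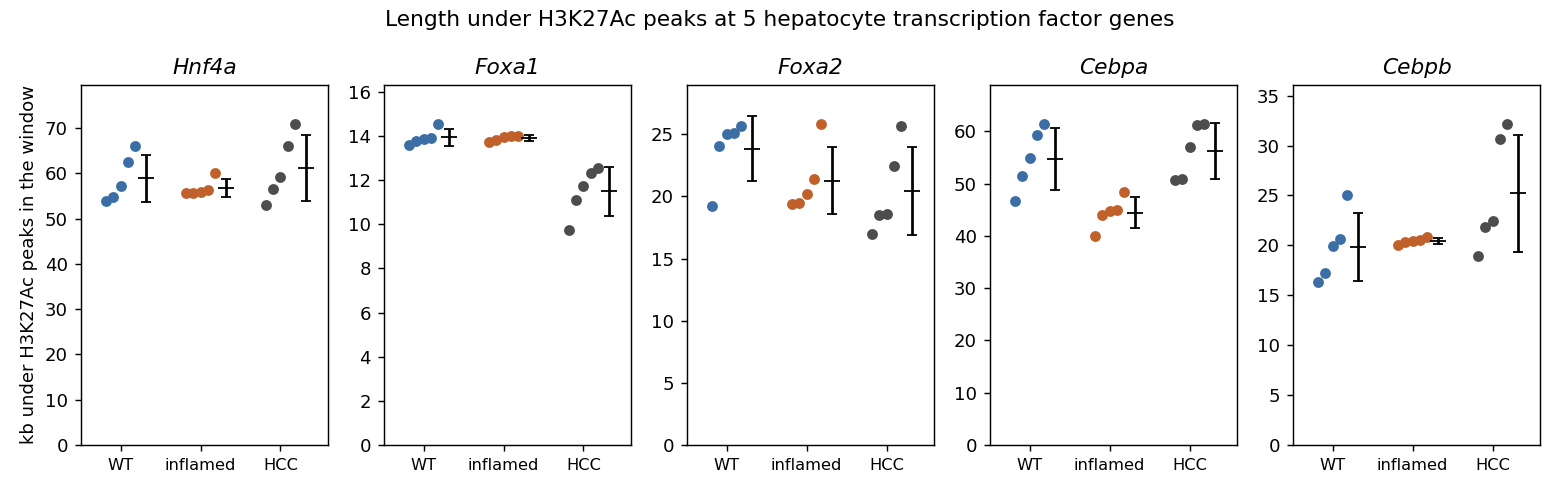
Length under H3K27Ac peaks (kb, y axis from 0, 1 scale per gene) in each of the 5 windows, with 1 point per animal, 5 WT, 5 inflamed and 5 HCC, and the mean with its SD to the right of each group. At Foxa1 the 5 HCC points (9762 to 12570 bp) lie below all WT and inflamed points (13580 to 14571 bp), and at Cebpa the HCC points (50674 to 61498 bp) lie above all inflamed points (40005 to 48444 bp).

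The plot of length under peaks shows the question asked of each gene, whether the acetylated length around it differed between the stages. Differences of group means were tested by exact permutation, two-sided, with Benjamini-Hochberg adjustment over the 5 windows and all 50 kb bins of the genome with a peak, 24835 features in all. Most windows differ in width from these bins. With 5 animals against 5 the smallest p is 0.00794, and the 3 contrasts share groups. No window passed an adjusted p of 0.05 in any of the 15 tests, with an unadjusted p under 0.05 at 1 of 5 windows between inflamed and WT livers, at 2 between nodules and inflamed livers, and at 1 between nodules and WT livers, where 33.4%, 15.8% and 9.89% of all features were under this threshold. Over all features, 14.5% were called higher and 4.03% lower in inflamed than in WT livers, and 0% in either HCC contrast, where the smallest adjusted p of any feature was 0.127 against inflamed and 0.322 against WT livers.

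Foxa1 was the gene at which nodules lay apart from both other groups. WT livers had 13580, 13791, 13849, 13905 and 14571 bp under peaks in the window, and inflamed livers had 13743, 13811, 13966, 14016 and 14027 bp. HCC nodules had 9762, 11093, 11752, 12309 and 12570 bp. Every nodule lay below all 10 other animals, while WT and inflamed livers overlapped within a narrow range. The mean was 11497 ± 1124 bp in nodules, 13913 ± 128 bp in inflamed and 13939 ± 374 bp in WT livers (SD, n = 5 each). The differences of -2415 bp against inflamed and -2442 bp against WT livers (-17.4% and -17.5%) had the smallest p possible (exact permutation p = 0.00794 each, adjusted p = 0.127 and 0.322). Nodules below all others were found in 0.274% of the 24835 features, and in 0.219% of the 10061 with a peak in all 15 animals. In single contrasts, 4.76% of features had all nodules below inflamed and 1.16% below WT livers.

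The shorter stretch lay mostly at 1 end of the Foxa1 region (chr12:58634431-58649103). Measured from its lower-coordinate end, coverage began after 0 to 813 bp in WT, after 502 to 707 bp in inflamed livers and after 1558, 2670, 3022 and 4356 bp in 4 nodules. HCC animal 124711 began after 483 bp, as other livers did, and had 1222 bp of gaps between its 3 peaks. At the other end the shortfall was at most 428 bp in WT and inflamed livers and 251 to 683 bp in nodules. The rank of the Foxa1 peak also differed among nodules. Its highest peak shared the score of 3100 in all WT and inflamed livers, at the 99.3rd to 99.5th percentile of the list, and in HCC animals 124711 and 125278. In HCC animals 123206, 125279 and 123390 the highest Foxa1 peak scored 1368, 1379.6 and 2199.6, at the 72.5th, 74.6th and 85.4th percentile. All 3 of these nodules ranked Foxa1 below the other 4 genes.

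Nodules stayed below all others at Foxa1 under 5 of 7 other settings, but not all of these could have changed the result. Leaving out animals cannot make separate groups overlap, and equal lists and 100 kb bins left the differences at -2415 and -2442 bp. Nodules were also below all others with the top 50% of each list (-2676 and -2703 bp). The same held with the window extended by 10000 bp (-3492 and -4625 bp). By number of peaks the groups overlapped. Without WT animal 130748 and HCC animal 124711 the differences were -2684 and -2733 bp. Per Mb under peaks in the list, the groups overlapped because HCC animal 124711, with the least Mb under peaks (92.5 Mb), had 136 bp per Mb. The other nodules had 66.4, 67.0, 72.9 and 80.6, inflamed livers 87.6 to 101 and WT livers 93.2 to 127 bp per Mb. RefSeq places the gene Ttc6 over Foxa1, so that a peak in this window cannot be assigned to 1 of the genes.

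**Figure D2:**
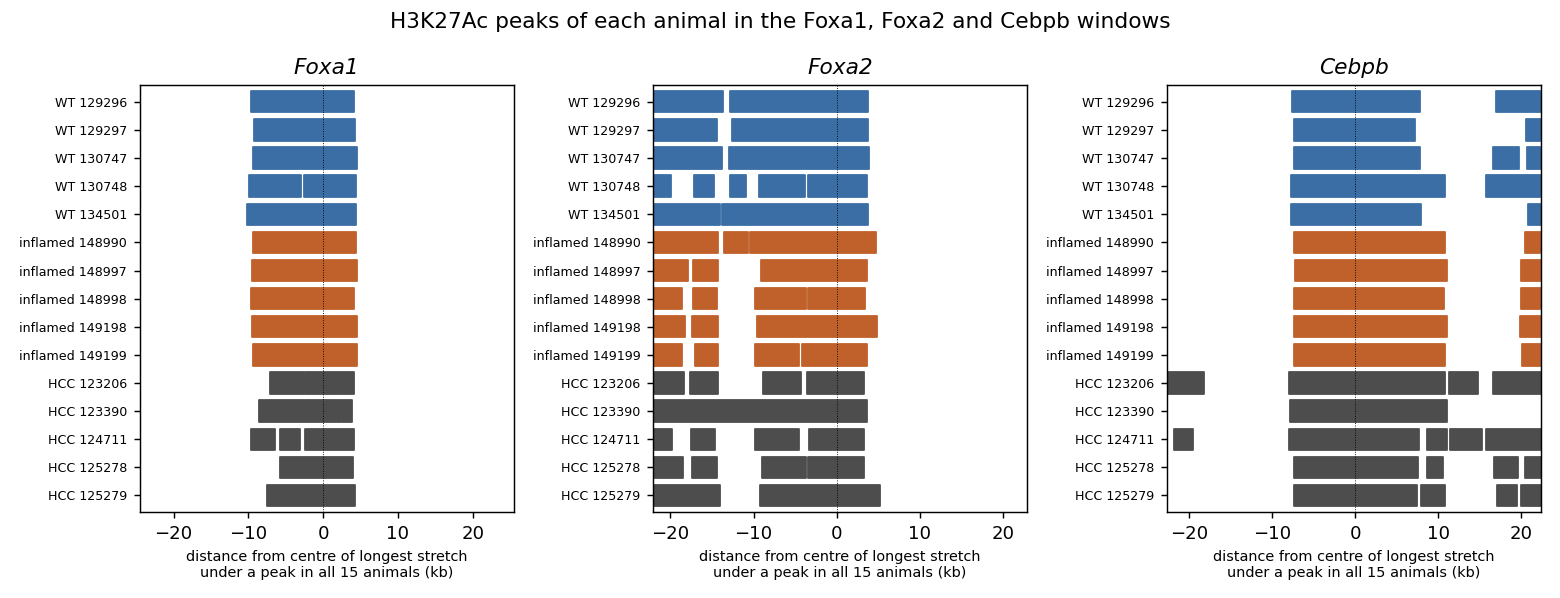
H3K27Ac peaks of each animal (1 row each, WT on top, then inflamed, then HCC) in the Foxa1, Foxa2 and Cebpb windows, against the distance in kb from the centre of the longest stretch under a peak in all 15 animals. Bars are peaks, and 4 of 5 nodules start 1558 to 4356 bp inside the left end of the Foxa1 region.

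At Foxa2, the other forkhead gene, the groups overlapped. WT livers had 19252, 24068, 25032, 25130 and 25696 bp under peaks. Inflamed livers had 19402, 19439, 20162, 21383 and 25860 bp, and nodules had 16974, 18489, 18550, 22446 and 25690 bp. The low WT value was that of animal 130748, the high inflamed value that of 148990 and the high nodule that of 123390, and the groups overlapped in each contrast. Means were 23836 ± 2628 bp in WT, 21249 ± 2699 bp in inflamed livers and 20429.8 ± 3569.9 bp in nodules (SD, n = 5 each). The differences were -2586 bp for inflamed against WT, -819 bp for nodules against inflamed livers and -3406 bp for nodules against WT livers (exact permutation p = 0.206, 0.683 and 0.0952, adjusted p = 0.411, 1 and 0.645). Without WT animal 130748 the differences from WT livers were -3732 bp for inflamed livers and -4552 bp for nodules (exact permutation, adjusted p = 0.127 and 0.480). The difference between nodules and inflamed livers turned direction without HCC animal 124711 (44.5 bp) and without inflamed animal 148990 (333 bp).

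In the tracks of Foxa2 peaks, some bins were occupied in more WT livers than others. Over the 3 bins of 1000 bp from chr2:147859001 to 147862000, peaks filled at least 500 bp in 4, 5 and 4 WT livers, in 1 inflamed liver and in 1 nodule. These bins were named after their values were seen. Over the genome, 3.77% of bins were occupied in at least 4 WT livers and at most 1 inflamed liver, and 2.36% in at least 4 WT livers and at most 1 nodule. The single Foxa2 region (chr2:147828729-147877262) reached beyond the lower end of the window, and over its full length nodules ranged from 19956 bp in 124711 to 46961 bp in 123390, where 1 peak covered nearly all of it.

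Hnf4a had the widest merged region, and the total length under peaks in its window did not separate the groups. WT livers had 53966, 54732, 57240, 62441 and 66035 bp under peaks, and inflamed livers had 55622, 55633, 55806, 56377 and 60138 bp. Nodules had 53021, 56513, 59225, 65986 and 71000 bp. The longest value was that of HCC animal 123206 and the shortest that of 124711, so that nodules spanned the range of all groups. Means were 58883 ± 5194 bp in WT, 56715 ± 1938 bp in inflamed livers and 61149 ± 7275 bp in nodules (SD, n = 5 each), with differences of -2168 bp for inflamed against WT, 4434 bp for nodules against inflamed livers and 2266 bp for nodules against WT livers (exact permutation p = 0.444, 0.254 and 0.579, adjusted p = 0.695, 0.726 and 1). Without WT animal 130748 and HCC animal 124711 the differences were -3397, 6466 and 3069 bp (exact permutation, adjusted p = 0.382, 0.283 and 0.917). Relative to the longer lists of inflamed livers the first contrast passed the test. Inflamed livers had 386 ± 26.8 and WT livers 461 ± 43.9 bp per Mb under peaks (SD, n = 5 each), a difference of -75.1 bp per Mb (exact permutation p = 0.00794, adjusted p = 0.0364), and 10.3% of features were called lower on this scale.

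The number of Hnf4a peaks was higher in every inflamed liver than in WT livers, without passing the adjusted test. All 5 inflamed livers had 6 peaks in the window, WT livers had 3 to 5 and nodules had 2 to 7. The difference was 1.80 peaks (exact permutation p = 0.00794, adjusted p = 0.0751), and 9.85% of features had more peaks in every inflamed than in every WT liver. The widest single peak measured 17446 to 21765 bp in inflamed livers, 21382 to 59727 bp in WT livers and 21397 to 54183 bp in nodules.

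A peak at lower coordinates than the main Hnf4a stretch was gained in inflamed livers. The region chr2:163318066-163321817, 3752 bp wide, had no peak in any WT liver. In inflamed livers it was covered over 2747, 2881, 2939, 3169 and 3329 bp, and in nodules over 3391 bp in 123206 and 3554 bp in 125279, with none in the other 3. The difference between inflamed and WT livers was 3013 bp (exact permutation p = 0.00794, adjusted p = 0.0361). Regions gained in all 5 inflamed livers and absent from all 5 WT livers were 4.82% of the genome's regions. The inflamed peaks ranked low in their lists, at the 38.6th percentile or below, and no gained 1000 bp bin was left with equal lists or with the top 50% of each list.

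**Figure D3:**
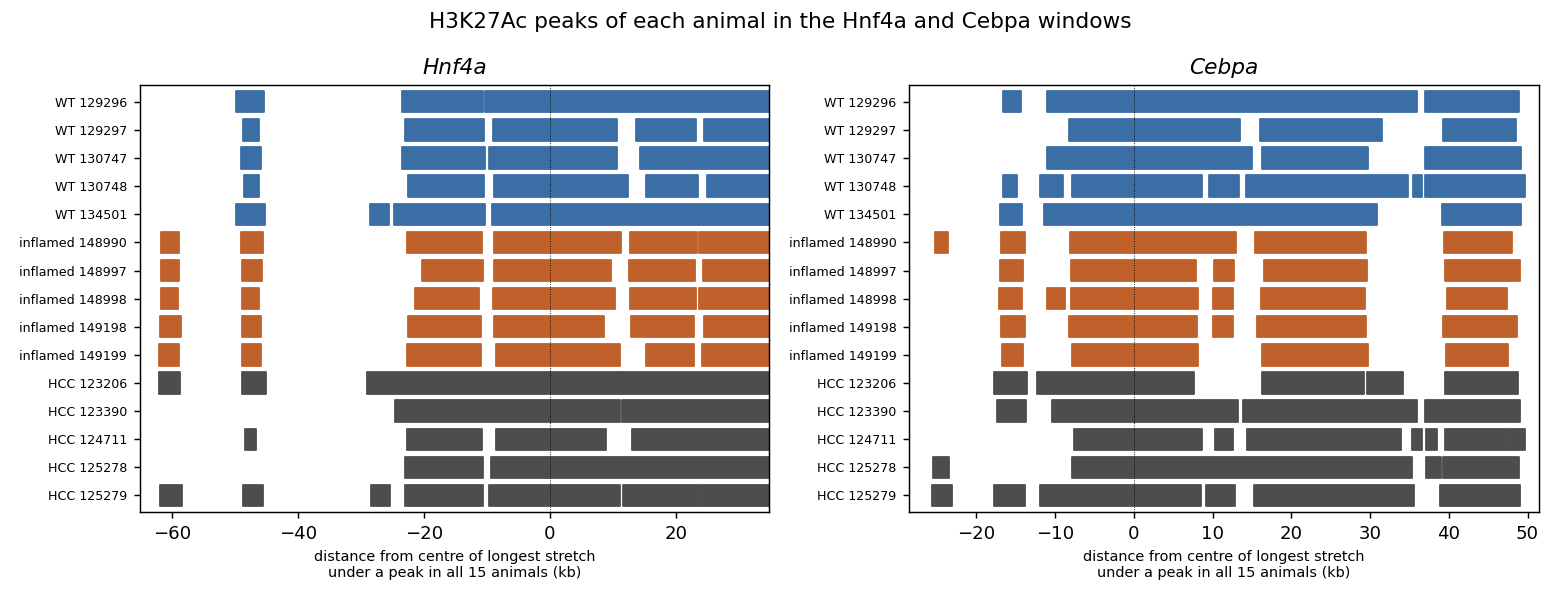
H3K27Ac peaks of each animal (1 row each) in the Hnf4a and Cebpa windows, against the distance in kb from the centre of the longest stretch under a peak in all 15 animals, with bars for peaks. The leftmost Hnf4a peak is present in 5 inflamed livers, 2 nodules and 0 WT livers, and at Cebpa the right part of the main stretch reaches further in the 5 nodules than in the 5 inflamed livers.

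The next region at Hnf4a (chr2:163330315-163335044) was covered in every WT and inflamed liver, over 2260 to 4561 and 2652 to 3429 bp, and in 3 of 5 nodules. The main region (chr2:163351112-163429736) runs past the upper end of the window. Over its full length it was covered over 64042 ± 1501 bp in inflamed livers, 69660 ± 4597 bp in WT livers and 71817 ± 5474 bp in nodules (SD, n = 5 each). The differences of -5618 bp for inflamed against WT and 7775 bp for HCC against inflamed did not pass the adjusted test (exact permutation p = 0.0238 and 0.0159, adjusted p = 0.0832 and 0.155). Without WT animal 130748 it was called lower in inflamed livers, as given with the other regions below. RefSeq lists the antisense gene Hnf4aos over Hnf4a, and peaks of the 2 cannot be told apart.

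At Cebpa the mean acetylated length was lowest in inflamed livers, as it was at Hnf4a, and nodules did not overlap with inflamed livers. WT livers had 46648, 51517, 54971, 59389 and 61318 bp under peaks, and inflamed livers had 40005, 44062, 44684, 45028 and 48444 bp. Nodules had 50674, 50887, 56936, 61134 and 61498 bp. All nodules lay above all inflamed livers and within or next to the WT range, and WT and inflamed livers overlapped only at inflamed animal 148990 and WT animal 129297. Means were 54769 ± 5933 bp in WT, 44445 ± 3010.4 bp in inflamed livers and 56226 ± 5285 bp in nodules (SD, n = 5 each).

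The difference between nodules and inflamed livers at Cebpa was 11781 bp, 26.5% more (exact permutation p = 0.00794, adjusted p = 0.127), and 1.48% of features had all nodules above all inflamed livers. Without HCC animal 124711 it was 13169 bp, and leaving out a nodule cannot make these groups overlap. The groups overlapped with the top 50% of each list (10764 bp, exact permutation p = 0.0159, adjusted p = 0.321) and with the window extended by 10000 bp (11351 bp, exact permutation p = 0.0159, adjusted p = 0.190). The difference of inflamed from WT livers was -10324 bp or -18.9% (exact permutation p = 0.0159, adjusted p = 0.0711). It was -9169 bp without WT animal 130748 (exact permutation, adjusted p = 0.0542). Nodules differed from WT livers by 1457 bp (exact permutation p = 0.675, adjusted p = 1), and by 4000.2 bp without WT animal 130748 and HCC animal 124711 (exact permutation, adjusted p = 0.819). Per Mb under peaks, inflamed livers had 302 ± 20.6 and WT livers 431 ± 66.1 bp per Mb (SD, n = 5 each), a difference of -128 that passed the test (exact permutation p = 0.00794, adjusted p = 0.0364). On this scale 10.3% of all features were called lower. Without WT animal 129297 the difference in length was -12354 bp and also passed (exact permutation, adjusted p = 0.0499).

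The difference lay mostly in the main Cebpa region (chr7:35896262-35945171). WT livers were covered over 37345, 39381, 42109, 44879 and 47011 bp, inflamed livers over 29471, 31635, 32672, 34177 and 35119 bp, and nodules over 37433, 39262, 43271, 44454 and 45699 bp. All inflamed livers were below all WT livers and all nodules. The difference of inflamed from WT livers was -9530.2 bp or -22.6% (exact permutation p = 0.00794, adjusted p = 0.0361, with 5.41% of regions called lower), and nodules were higher than inflamed livers by 9409 bp without passing the adjusted test (exact permutation p = 0.00794, adjusted p = 0.101).

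Bins of 1000 bp located it further. A bin counted as occupied in an animal with at least 500 bp under peaks, and as gained or lost where 1 group had it occupied in 5 animals and the other in 0. For HCC against inflamed 6 of the 217 bins of the windows with a peak were gained and 0 lost, where 0.197% of bins were gained and 0.929% lost over the genome. Of these, 5 were adjacent at Cebpa (chr7:35938001-35943000), so that they form 1 stretch. Nodules covered 4500, 4510, 5000, 5000 and 5000 of its 5000 bp, inflamed livers 0, 74, 111, 130 and 258 bp, and WT livers 278, 1470, 2139, 5000 and 5000 bp. Nodules filled the stretch as WT animals 129296 and 130748 did, and inflamed livers were below every WT liver. The 5 bins were also called with equal lists, and 0 of them with the top 50% of each list.

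For inflamed against WT 3 bins of the windows were gained, all in the first Hnf4a region, and 1 was lost, at Cebpa (chr7:35921001-35922000), where 3.42% of bins were gained and 0.741% lost over the genome. In the lost bin WT livers covered 874 to 1000 bp, inflamed livers 0 to 494 bp and nodules 0 to 1000 bp. The remaining bin gained in nodules over inflamed livers was at Hnf4a (chr2:163357001-163358000), with 599 to 1000 bp in nodules, 0 to 485 bp in inflamed livers and 425 to 1000 bp in WT livers, at the edge of the main region. For HCC against WT no bin of the windows was gained or lost, with 0.203% and 0.185% over the genome.

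**Figure D4:**
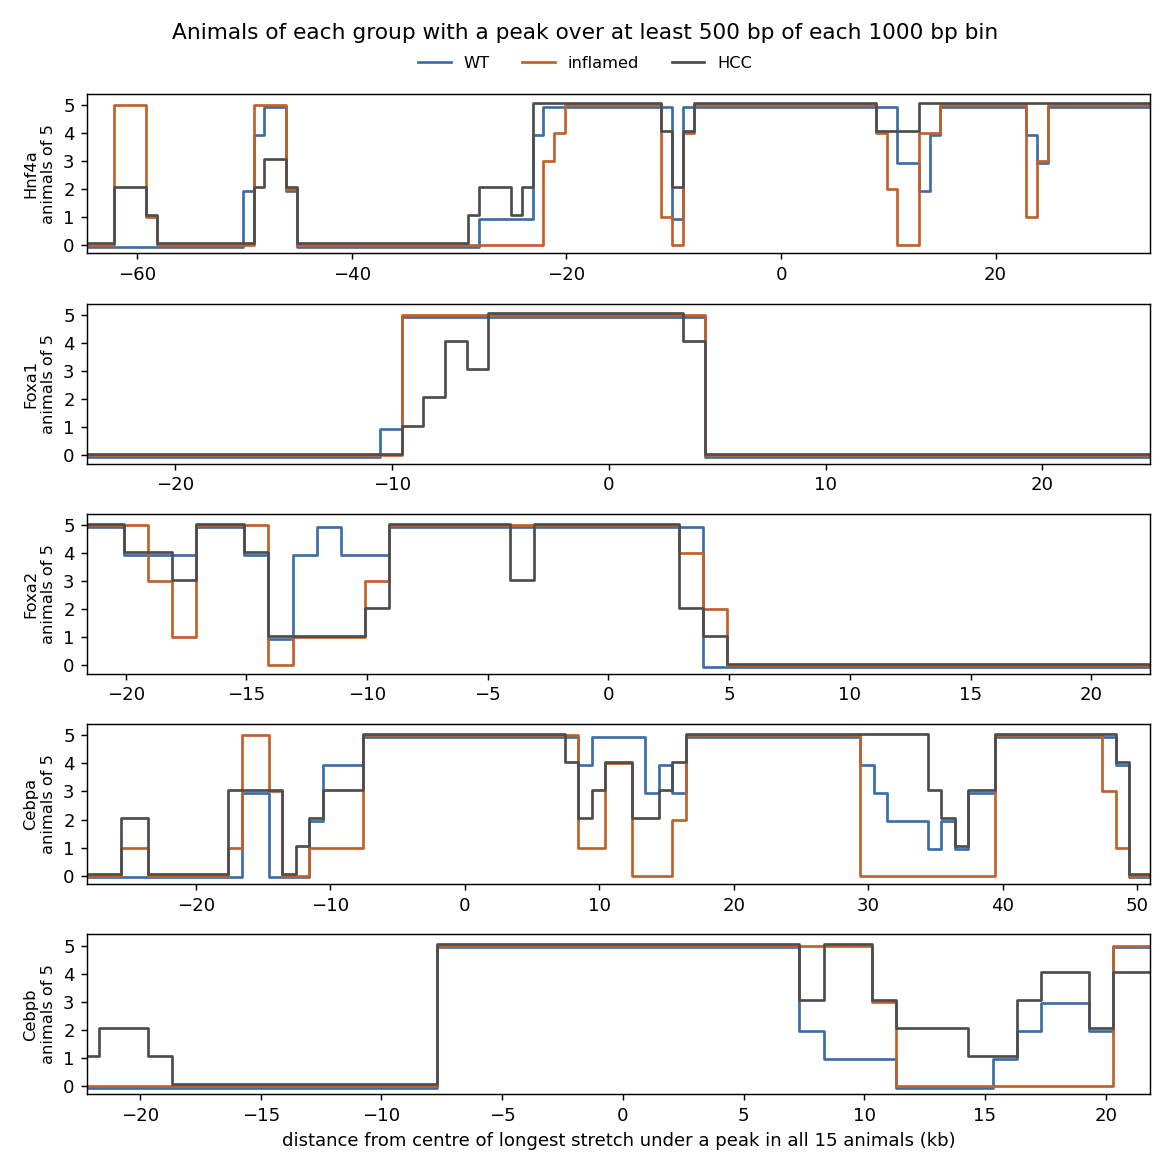
Number of animals of each group (0 to 5, y axis) with at least 500 bp under peaks in each 1000 bp bin, against the distance in kb from the centre of the longest stretch under a peak in all 15 animals, with lines drawn slightly apart for WT, inflamed and HCC. At Cebpa 5 adjacent bins right of the centre hold all 5 nodules and 0 inflamed livers, and in the bin next to the left end of the Foxa1 region the line is at 1 for nodules and at 5 for WT and inflamed livers.

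At Cebpa a smaller region (chr7:35890783-35894952) was covered in all 5 inflamed livers over 2705 to 3058 bp, in 3 WT livers and in 3 nodules. The inflamed livers exceeded WT livers by 1524 bp without passing the adjusted test (exact permutation p = 0.0159, adjusted p = 0.0613). The fourth region (chr7:35945536-35958310) was covered over 8588 ± 867 bp in inflamed, 11242 ± 1491 bp in WT livers and 10942 ± 1156 bp in nodules (SD, n = 5 each), the same order as in the main region (inflamed against WT exact permutation p = 0.0238, adjusted p = 0.0832). A region with a peak in 1 inflamed liver and 2 nodules was not tested.

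At Cebpb the spread between animals was wide in nodules and narrow in inflamed livers. WT livers had 16371, 17218, 19883, 20661 and 25061 bp under peaks, inflamed livers 20051, 20346, 20480, 20537 and 20797 bp, and nodules 18977, 21810, 22421, 30685 and 32204 bp. The high WT value was that of animal 130748, and the high nodules were 124711 and 123206. Means were 19839 ± 3422 bp in WT, 20442 ± 273 bp in inflamed livers and 25219 ± 5854 bp in nodules (SD, n = 5 each), and the differences of 603 bp for inflamed against WT, 4777 bp for nodules against inflamed livers and 5381 bp for nodules against WT livers did not pass the test (exact permutation p = 0.833, 0.103 and 0.135, adjusted p = 1, 0.489 and 0.691). Without WT animal 130748 and HCC animal 124711 the differences were 1909, 3411 and 5319.8 bp, in the same order, and did not pass either (exact permutation, adjusted p = 0.126, 0.413 and 0.479).

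The total at Cebpb was made of regions with differences of opposite sign. The main region (chr2:167509712-167528802) ended between 167528416 and 167528709 in inflamed livers and between 167528323 and 167528802 in nodules. In WT livers it ended between 167524906 and 167525608, except in animal 130748, where it ended at 167528564. In HCC animals 124711, 125278 and 125279 the main peak itself ended at 167525387, 167525306 and 167525103, near the WT end, and the last part was a separate peak at the 30.9th, 22.2nd and 40.4th percentile of the list. The covered length was 18118 to 18375 bp in inflamed livers, 14619 to 15685 bp in 4 WT livers and 18542 bp in 130748, and 16999 to 18977 bp in nodules. The difference between inflamed and WT livers was 2363 bp with all animals (exact permutation p = 0.0476, adjusted p = 0.117), and 3034 bp without WT animal 130748 (exact permutation p = 0.00794, adjusted p = 0.0284).

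The next region (chr2:167533463-167550765), which reaches past the upper end of the window, went the other way. Its lengths are given over the full region, so the part past the window is not in the window total. For inflamed against WT livers the Cebpb difference was 603 bp in the window. It was -4007 bp with the window extended by 10000 bp (exact permutation p = 0.0238, adjusted p = 0.0962). WT livers were covered over 11127, 12245, 13831, 15870 and 15883 bp, and inflamed livers over 5961, 6238, 6285, 7805 and 8777 bp. Nodules had 14794, 14796, 14826 and 15834 bp in 4 animals and no peak in 123390. Inflamed livers were all below WT livers, with a difference of -6778 bp or -49.1% (exact permutation p = 0.00794, adjusted p = 0.0361), while nodules and inflamed livers overlapped through the nodule without a peak (difference of 5037 bp, exact permutation p = 0.127, adjusted p = 0.443). The highest peak of this region in each animal ranked between the 28.2nd and 78.9th percentile of its list, with other peaks of the region as low as the 4.05th in HCC animal 125279, and with the top 50% of each list the difference was -2195 bp (exact permutation, adjusted p = 0.467). A pair of further regions, at chr2:167495173-167499485 and chr2:167529042-167532921, had peaks only in nodules 123206 and 124711 of all 15 animals.

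Of the 10 regions of the windows tested, 3 were thus called for inflamed against WT, 1 higher (Hnf4a window) and 2 lower (Cebpa and Cebpb windows). Of the 32392 regions tested over the genome, 16.6% were higher and 5.41% lower. The Cebpb region called lies partly outside the window. Regions are named by their window and were not assigned to a gene. In RefSeq the nearest gene at lower coordinates than Hnf4a is R3hdml. At higher coordinates than Cebpb the nearest is A530013C23Rik, and the nearest coding gene Ptpn1. These genes were not placed on the peaks. No region was called in the HCC contrasts (0 of 10 in each, with 0% called over all regions). At an unadjusted p under 0.05 there were 7 of the 10 regions for inflamed against WT livers, 4 for nodules against inflamed livers and 2 for nodules against WT livers, where 40.7%, 19.1% and 11.5% of all regions tested were under it. Without inflamed animal 148997, 148998, 149198 or 149199 none of the 3 was called. The smallest adjusted p of any region of the genome was then 0.0512 to 0.0560 (exact permutation), so that no region at all was called. The loss of these calls is therefore not particular to the 3 regions. Without 148990 the Cebpa region was not called (exact permutation, adjusted p = 0.0662). Without WT animal 130748, which covered less at Foxa2 and more at Cebpb than other WT livers, 6 regions were called, adding the main Hnf4a region (-6842 bp, exact permutation, adjusted p = 0.0444), the smaller Cebpa region (1621 bp, adjusted p = 0.0444) and the main Cebpb region. The smaller Cebpa region was also called without WT animal 134501 (1889 bp, exact permutation, adjusted p = 0.0368).

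Across the 15 animals, the covered lengths of the 5 windows did not move together as a group. Pearson correlations between windows, which share the library of each animal and its group, ranged from -0.692 for Foxa2 and Cebpb to 0.392 for Foxa1 and Foxa2, and the pattern most like that of Hnf4a was that of Cebpa (r = 0.370, n = 15). The correlation of each window with the Mb under peaks in the list was between -0.358 for Cebpb and 0.384 for Foxa2. For Hnf4a it was 0.382, slightly above the 0.370 of Hnf4a with Cebpa. These values are descriptions over 15 animals of 3 groups.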

How the data were processed

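H3K27Ac ChIP-seq of 15 animals was analysed from 1 peak list per animal, and an IgG control library was not analysed here. Per the submitters' processing notes, the authors used Bowtie 0.12.7 and MACS 1.4 on mm9, and they deposited for each peak its position and a score, which was used only to rank peaks within a list. The lists used here held no read counts, so they are compared as called. Groups and animals came from the sample labels. Peaks on chromosomes 1 to 19 and X were merged where they overlapped or adjoined, and regions with a peak in at least 5 animals were tested. Differences in covered bp were tested by exact permutation over animals, two-sided, with Benjamini-Hochberg adjustment (threshold 0.05) over all features. The genes, windows and motifs were chosen with earlier results of these data known. Named were all 5 genes, the widest, most changed and called regions, and all called bins. Alternatives were the top 50% of each list, equal lists of the best 26375 peaks, number of peaks, bp per Mb, other windows and bins, and leaving out animals. The functions were tested on simulated lists. Scripts ran in Python 3.11.15 with NumPy 2.4.6, and figures were drawn with matplotlib 3.10.9.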

Additional observations from a re-analysis of the deposited data

Results flagged for a closer look

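Of 15 sets of 5 animals (5 windows in 3 groups), 2 held an animal far from the others of its group, where chance gives about 1 in 20 sets. Far meant a gap to the nearest value above 0.71 of the range of the set. The gaps were 0.833 and 0.747 of the range in the order below. The windows share the animals of each group, so the sets are not independent. In the Hnf4a window inflamed animal 148990 had 60138 bp under peaks, and the other inflamed livers had 55622 to 56377 bp. In the Foxa2 window WT animal 130748 had 19252 bp under peaks, and the other WT livers had 24068 to 25696 bp.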

How the results depend on the processing

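No paired analysis was possible because the groups share no animal or replicate numbers. Depth is unknown, peak edges depend on the caller, and the smallest p of 5 animals against 5 is 0.00794. Of 255 values for the windows under other settings, 225 kept their direction and side of the threshold, 27 turned direction and 3 newly passed the test. The cause was not tested. Differences are in bp and in the order of the contrast unless stated.

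With the top 50% of each list, Cebpb was at -2580.2 for HCC against inflamed and Cebpa at -1432 for HCC against WT, 1 region was called for inflamed against WT, and 0 bins were gained for inflamed against WT, with 1 gained for HCC against inflamed. With equal lists, Cebpa was at -214 for HCC against WT, and bins for inflamed against WT were 0 gained and 2 lost. Without WT 130748 and HCC 124711 together, Foxa2 was at 44.5 for HCC against inflamed, 6 regions were called for inflamed against WT, and bins were 5 gained and 2 lost for inflamed against WT, 1 lost for HCC against inflamed, and 2 gained and 1 lost for HCC against WT. By number of peaks, inflamed against WT gave 1.80 at Hnf4a, 0.800 at Foxa2, 1 at Cebpa and -0.200 at Cebpb, HCC against inflamed gave -2 at Hnf4a and 0.800 at Foxa1, and HCC against WT gave -0.200 at Hnf4a, 0.600 at Foxa1 and 0.400 at Foxa2. In bp per Mb under peaks, inflamed against WT gave -75.1 at Hnf4a and -128 at Cebpa, which passed the test, and -17.8 at Cebpb, HCC against inflamed gave 0.413 at Foxa2, and HCC against WT gave -21.4 at Hnf4a and -27.1 at Cebpa. With windows extended by 10000 bp, Cebpb was at -4007 for inflamed against WT and Foxa2 at 857 for HCC against inflamed. Testing regions with a peak in any animal called 0 regions for inflamed against WT. Joining regions across gaps of up to 1000 bp merged at least the Cebpb regions at chr2:167509712-167528802, chr2:167529042-167532921 and chr2:167533463-167550765 into 1. The joined region had a difference of -4690 for inflamed against WT. When 4 of 5 animals against at most 1 of 5 sufficed, inflamed against WT had 5 bins gained and 16 lost, HCC against inflamed 13 gained and 1 lost, and HCC against WT 2 gained and 4 lost, of 217 bins each, where the shares over the genome were 8.99% and 3.77%, 1.72% and 4.46%, and 2.79% and 2.36%. With 500 bp bins 5 were gained for inflamed against WT.

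Leaving out single animals, inflamed against WT ranged from -116 to 131 at Foxa1, from -12354 to -8687 at Cebpa and from -264 to 1909 at Cebpb. HCC against inflamed ranged from -2134 to 333 at Foxa2, and HCC against WT from -197 to 4298 at Hnf4a and from -573 to 3095 at Cebpa. Regions called for inflamed against WT ranged from 0 to 6. Bins ranged from 3 to 5 gained and 1 to 3 lost for inflamed against WT, from 0 to 1 lost for HCC against inflamed, and from 0 to 2 gained and 0 to 1 lost for HCC against WT.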
